A study of Mus musculus with 21 samples.

Results

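The D-type cyclins (Ccnd1, Ccnd2 and Ccnd3), their kinases (Cdk4 and Cdk6), the INK4 inhibitors Cdkn2a, Cdkn2b and Cdkn2c, and the retinoblastoma gene Rb1 were followed in 21 mouse mammary tumours. These 9 genes were taken by name, as a pathway, with no threshold on their values. All 9 were found among the 24028 genes of the count table, and all 9 passed the filter on low counts that left 15792 genes for testing.

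Every tumour was labelled with the genotype WAP-Cre/PIK3CA-H1047R, in which Cre driven by the whey acidic protein promoter acts in milk-producing mammary epithelium and turns on a mutant catalytic subunit of phosphatidylinositol 3-kinase (PI3K). There were 7 tumours labelled DMSO, the vehicle, 7 labelled BYL719_Relapse and 7 labelled BYL719_Stable. BYL719 (alpelisib) is an inhibitor of the PI3K catalytic subunit that PIK3CA encodes. The design text speaks of responding where the sample labels say relapse, and the names relapse and stable are used here. The sources used here give no age, dose or length of treatment, and all 3 groups carry the same transgenes, so no group without the mutant PI3K was compared.

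D-type cyclins bind and activate CDK4 and CDK6, and the complexes phosphorylate RB1, the pocket protein that holds E2F transcription factors in check before S phase. INK4 proteins bind CDK4 and CDK6 and block them, while CIP/KIP proteins such as p27, encoded by Cdkn1b, bind a wider range of cyclin and kinase pairs. In the mammary gland cyclin D1 is the D cyclin best known for its part in lobuloalveolar growth and in tumours, and its gene responds to growth factor signals that include PI3K.

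Total counts per tumour ran from 13337848 to 24873844. Powdered whole tumours were sequenced, so a lower level can mean fewer cells of a type or less RNA per cell, which cannot be told apart. The titles carry number codes whose meaning is not given, and several tumours share one: the vehicle tumours carry 3 codes, the relapse tumours 7 and the stable tumours 4, and 2 codes occur in both treated groups. If a code marks an animal, the tumours within it are not independent and the p-values measure in part the spread within animals. Vehicle tumours 2, 6 and 7 stood apart: their summed level of 10 basal and myoepithelial markers was 10820 to 23520 CPM (read counts scaled to a common library size), against 1279 to 5733 in the other 4 vehicle tumours, 998.7 to 2310 in the relapse group and 247.2 to 1549 in the stable group. All 8 luminal epithelial markers were detected in every tumour, with summed levels of 1736 to 4426 CPM, so epithelial transcripts were present throughout. Foxa1, 1 of the 8, was as low as 0.44 CPM. Where leaving out these 3 vehicle tumours ended a call, turned a sign or moved a difference by much, the value without them is given beside the result.

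Divided by gene length, as RPKM, Rb1 had the highest level of the 9 genes, with a median of 75.3 over the 21 tumours. Cdk4 followed at 47.9 and Ccnd1 at 42.7. The median level of Ccnd1 lay above that of 92.8% of the genes tested, and those of Rb1 and Cdk4 lay higher still. In the vehicle tumours alone the median of Ccnd1, 70.6, was above that of Cdk4, 49.5. Cdk6 (19.9), Cdkn2b (19.7) and Ccnd2 (12.5) formed a middle tier, and Ccnd3 (6.81), Cdkn2c (5.61) and Cdkn2a (3.13) a low one. Ccnd1 exceeded Cdk6 in 21 of 21 tumours, whereas Cdk6 exceeded Cdkn2b in only 12 of 21, so the order of that neighbouring pair was not distinguished. This order rests on the gene lengths in the table, some of which were shorter than the exonic lengths in GENCODE M21. Cdk6 had 2742 against 13989 bases, Cdk4 1346 against 3249 and Ccnd2 6135 against 9409. The longer lengths would lower their levels, so the places of these genes in the order are not settled. Spread differed as much as level: the highest tumour was 8.12 times the lowest for Rb1 and 7.78 times for Ccnd2, but only 1.98 times for Ccnd3 and 1.9 times for Cdkn2c.

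**Figure D1:**
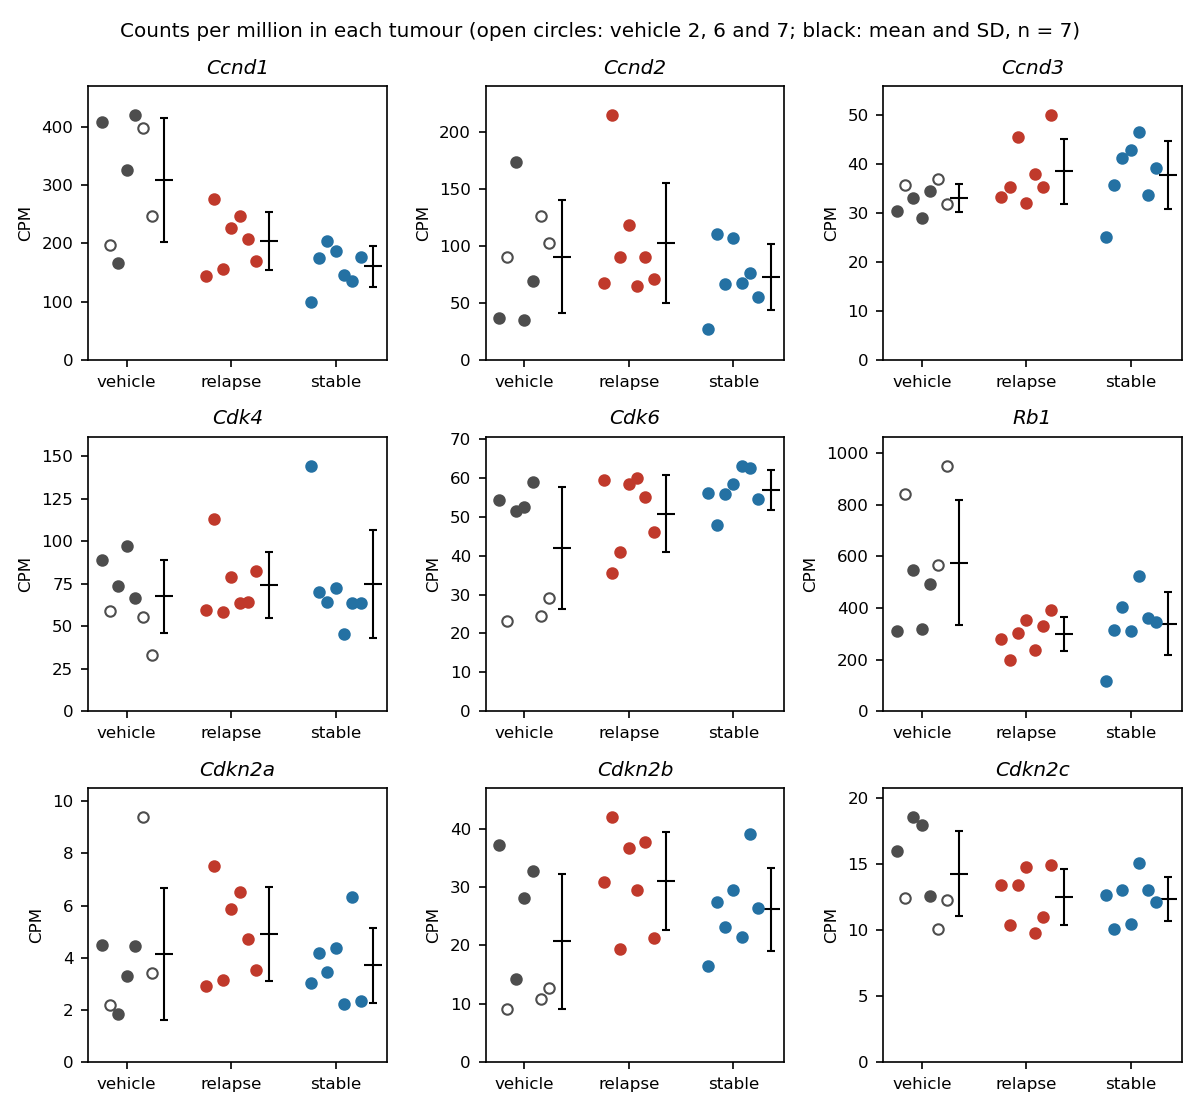
CPM of each of the 9 genes in every tumour (points), by group on the horizontal axis, with group means and SD. Ccnd1 and Rb1 lay lower in the treated groups, and vehicle tumours 2, 6 and 7 (open circles) held the lowest Cdk6 and Cdkn2b values and the highest Rb1 values.

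Ccnd1 (Entrez gene 12443, minus strand of chromosome 7, 144929931 to 144939831 in GRCm38) was the only D cyclin called, and it was called lower in stable tumours. In relapse tumours its difference from vehicle was also negative, at -0.60, but not called (edgeR adjusted p = 0.0753). The direct difference between relapse and stable tumours was 0.35 and not called (edgeR adjusted p = 0.99). The level of Ccnd1 in the vehicle tumours was lowest at 167 CPM, with a median of 326 and a highest value of 419. In the stable tumours the lowest was 99.5, the median 175 and the highest 204 CPM. The vehicle and stable groups overlapped, through vehicle tumours 2 and 3, and all 7 stable tumours lay below the vehicle median. Ccnd1 fell in the stable group to 0.521 of the vehicle level, a log2 fold change of -0.94 (SE 0.215, 95% interval -1.39 to -0.49, edgeR adjusted p = 0.00823).

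It was the only member called in that comparison, 1 of 9, where 15.1% of all genes tested were called, 6.9% higher and 8.16% lower. Without vehicle tumours 2, 6 and 7 the Ccnd1 difference was -1.03 (edgeR adjusted p = 0.017), and the call was lost when a single tumour was kept per title code (-1.14, edgeR adjusted p = 0.134). Of 11 skeletal muscle markers, 7 were called higher in stable tumours, with sums of 138.2 to 558.1 CPM in vehicle and 220.5 to 4456 in the stable group. In stable tumour 2, where they were lowest, Ccnd1 was 175 CPM, and the part of muscle in the result was not tested.

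In the relapse tumours Ccnd1 was lowest at 144 CPM, with a median of 209 and a highest value of 277. All 7 lay below the vehicle median, and the groups overlapped. The log2 fold change was -0.60 (SE 0.214, 95% interval -1.04 to -0.15), which did not pass the test (edgeR adjusted p = 0.0753). It passed with DESeq2 (adjusted p = 0.0409), with limma's voom and tumour quality weights (-0.78, adjusted p = 0.0119) and in edgeR without vehicle tumour 2 (0.0453), vehicle tumour 3 (0.0292) or stable tumour 1 (0.0493). A count of Ccnd1 reads may include those of a neighbour on the opposite strand, LTO1 (Oraov1 in the table). Of the exonic length of Ccnd1 in GENCODE, 23.4% (1100 bases) overlaps LTO1, and the strand setting of the counting is not given. Oraov1 itself was low, with means of 34.0, 30.6 and 28.3 CPM in vehicle, relapse and stable tumours, and was not called in either comparison.

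Ccnd2 and Ccnd3, which encode the other cyclins of the family, did not pass the test in either treated group. Ccnd2 varied widely within every group, from 35.1 to 175 CPM in vehicle (median 90.4), 65.7 to 215 in relapse (median 90.5) and 27.6 to 111 in stable tumours (median 67.5). These ranges overlapped almost wholly, with log2 differences from vehicle of 0.18 in relapse (95% interval -0.57 to 0.92) and -0.32 in stable tumours (-1.06 to 0.43). Without vehicle tumours 2, 6 and 7 the relapse difference of Ccnd2 was 0.38 (edgeR adjusted p = 0.673). Over all alternatives its stable difference ran from -0.53 to 0.37, never called. Ccnd3 was the steadiest D cyclin, at 29.0 to 37.0 CPM in vehicle (median 33.2), 32.2 to 50.0 in relapse (median 35.5) and 25.2 to 46.6 in stable tumours (median 39.2). It lay above the vehicle median in 6 of 7 tumours of each treated group, with differences of 0.22 (edgeR adjusted p = 0.268) and 0.19 (0.306).

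The 3 D cyclins together came to 88.1 ± 19.6 RPKM in vehicle, 68.4 ± 17.2 in relapse and 54.0 ± 12.1 in stable tumours (SD, n = 7 each). Ccnd1 made up 74.4% ± 13.2 of that sum in vehicle, 64.8% ± 5.46 in relapse and 64.8% ± 4.78 in stable tumours. The share of Ccnd3 was 7.52% ± 1.80, 11.5% ± 3.61 and 13.7% ± 2.15 in the same order. In every stable tumour, at 10.9% or more, it exceeded every vehicle tumour, where it was at most 10.7%. This share also rises when Ccnd1 falls, and the level of Ccnd3 itself was not called in stable tumours (0.19, edgeR adjusted p = 0.306). Vehicle tumour 3 was unlike its group, with a Ccnd2 share of 40.1% and a Ccnd1 share of 50.9%. These shares are descriptions without a test.

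**Figure D2:**
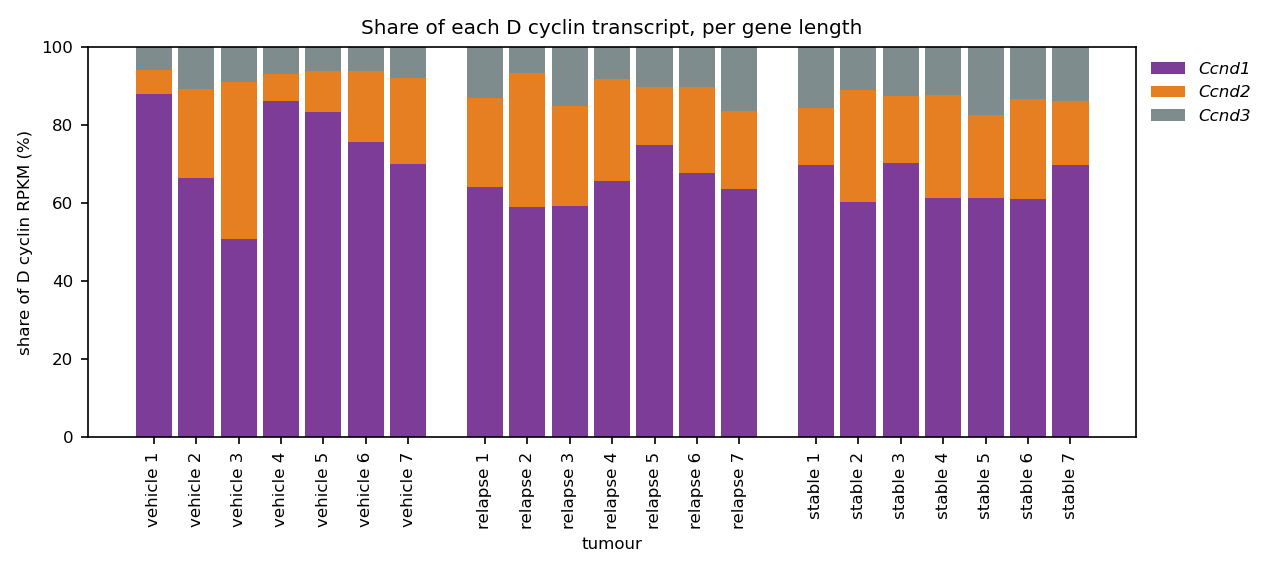
Share of the summed D cyclin RPKM (vertical axis, %) taken by Ccnd1, Ccnd2 and Ccnd3 in each of the 21 tumours. Ccnd1 shares run from 50.9% to 88.1% in vehicle tumours and from 58.9% to 74.8% in relapse tumours, and Ccnd3 shares are higher in every stable tumour than in any vehicle tumour. The Ccnd3 share also rises when Ccnd1 falls, without a change in Ccnd3.

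Cdk4 and Cdk6 encode the catalytic partners of the D cyclins. Their RefSeq promoter windows (GRCm38.p6, the 250 bases before the start, plus strand) are shown because they differ in the E-box CACGTG, the site read by MYC and related factors. Capitals mark each CACGTG, which reads the same on both strands.
Cdk4, chr10:127063285-127063534: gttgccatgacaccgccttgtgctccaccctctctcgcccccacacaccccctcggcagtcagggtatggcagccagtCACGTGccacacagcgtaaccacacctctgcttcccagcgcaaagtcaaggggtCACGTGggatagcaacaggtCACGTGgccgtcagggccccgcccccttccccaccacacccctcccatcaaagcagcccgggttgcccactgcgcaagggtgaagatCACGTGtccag
Cdk6, chr5:3343643-3343892: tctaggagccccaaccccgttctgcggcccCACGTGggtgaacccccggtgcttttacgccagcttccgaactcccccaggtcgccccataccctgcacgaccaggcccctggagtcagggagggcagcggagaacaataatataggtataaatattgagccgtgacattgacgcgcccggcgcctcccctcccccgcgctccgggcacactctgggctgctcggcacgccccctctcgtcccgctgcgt
The Cdk4 window held 4 E-boxes and the Cdk6 window 1. At least 1 was present in 6.02% of the 32851 promoter windows of the same length, and 4 or more in 7 of them (0.0213%). A match is a run of letters and not a measured binding site.

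Cdk4 passed the test in no comparison. Its values ran from 33.1 to 97.0 CPM in vehicle (median 66.6), 58.4 to 113 in relapse (median 64.4) and 45.6 to 144 in stable tumours (median 64.1). The groups overlapped throughout, with a relapse difference from vehicle of 0.13 (95% interval -0.36 to 0.63) and a stable one of 0.14 (-0.36 to 0.64), neither passing the test. The sign of both differences turned without vehicle tumours 2, 6 and 7, to -0.13 and -0.11, and that of the stable group also without stable tumour 1 (-0.10). Of the 3249 exonic bases of Cdk4 in GENCODE, 19.7% (641 bases) overlap Tspan31 on the opposite strand. The means of Tspan31 were 53.3, 52.1 and 53.0 CPM in vehicle, relapse and stable tumours. The table gives Cdk4 a length of only 1346 bases, and how many of the overlapping bases lie within them was not determined.

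Cdk6 ranged from 23.2 to 58.9 CPM in vehicle (median 51.5), 35.5 to 60.0 in relapse (median 55.1) and 47.9 to 62.9 in stable tumours (median 56.2). Vehicle tumours 2, 6 and 7, at 23.2, 24.4 and 29.1 CPM, were below all the other 18 tumours. The stable difference of 0.44 (95% interval 0.03 to 0.85) did not pass after adjustment (edgeR adjusted p = 0.136), nor did the relapse difference of 0.27 (0.394). Without those 3 vehicle tumours the differences were 0.08 and -0.09.

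Among the INK4 genes, the neighbours Cdkn2a and Cdkn2b on the minus strand of chromosome 4 are the classical senescence-associated pair. Cdkn2a has separate starts for p19ARF, which acts on the p53 pathway, and p16INK4a, and the gene-level count adds up transcripts from both and cannot be split. Both windows and that of Cdkn2b, which encodes p15INK4b, are shown (RefSeq, GRCm38.p6, minus strand, 250 bases), with capitals for an E2F-type motif, TTTCCCGC or TTTGGCGC on either strand.
Cdkn2a upstream start, chr4:89294620-89294869: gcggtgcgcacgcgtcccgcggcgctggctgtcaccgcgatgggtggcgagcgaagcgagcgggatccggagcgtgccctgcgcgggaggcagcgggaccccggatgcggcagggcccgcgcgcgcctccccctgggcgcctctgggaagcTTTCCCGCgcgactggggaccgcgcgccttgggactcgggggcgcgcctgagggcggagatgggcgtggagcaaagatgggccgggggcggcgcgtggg
Cdkn2a downstream start, chr4:89282193-89282442: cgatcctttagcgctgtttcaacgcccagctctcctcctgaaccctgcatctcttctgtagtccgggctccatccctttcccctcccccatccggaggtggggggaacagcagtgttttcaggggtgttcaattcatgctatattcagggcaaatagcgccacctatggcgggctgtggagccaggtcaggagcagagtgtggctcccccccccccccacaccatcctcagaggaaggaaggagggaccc
Cdkn2b, chr4:89311033-89311282: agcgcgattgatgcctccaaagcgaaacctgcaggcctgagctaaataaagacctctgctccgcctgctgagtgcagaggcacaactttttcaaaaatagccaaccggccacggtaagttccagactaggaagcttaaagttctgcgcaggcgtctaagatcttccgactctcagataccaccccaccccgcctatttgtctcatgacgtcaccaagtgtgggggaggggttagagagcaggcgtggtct
One such motif lay before the upstream Cdkn2a start and none in the other 2 windows, and 1.3% of all windows held one. No match says only that these letters are absent from the window.

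Cdkn2a was the lowest of the 9 genes, and its smallest count in any tumour was 39 reads. It ran from 1.85 to 9.38 CPM in vehicle (median 3.41), 2.91 to 7.53 in relapse (median 4.72) and 2.24 to 6.33 in stable tumours (median 3.45). The highest value was in vehicle tumour 6, and the groups overlapped fully. The relapse difference from vehicle was 0.24 (95% interval -0.46 to 0.93) and the stable one -0.16 (-0.86 to 0.53), so changes of nearly 1 log2 unit lay within the first interval. Without vehicle tumours 2, 6 and 7 the differences were 0.48 and 0.09.

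Cdkn2b was the INK4 transcript with the largest mean share in each group, though not in vehicle tumour 6 (34.4%, against 36.2% for Cdkn2a). With Cdkn2d included, it took 50.3% ± 13.3 of the summed INK4 RPKM in vehicle, 63.6% ± 5.10 in relapse and 62.5% ± 5.33 in stable tumours (SD, n = 7 each). Its values were 9.19 to 37.1 CPM in vehicle (median 14.3), 19.3 to 41.9 in relapse (median 30.9) and 16.5 to 39.1 in stable tumours (median 26.5). All 7 tumours of each treated group lay above the vehicle median, yet the groups overlapped, and the 3 lowest of the 21 values were those of vehicle tumours 2, 6 and 7. The differences of 0.58 in relapse (95% interval -0.03 to 1.19, edgeR adjusted p = 0.205) and 0.34 in stable tumours (0.453) did not pass. Without those 3 tumours they were 0.15 and -0.09.

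Cdkn2c, which encodes p18INK4c, ran from 10.1 to 18.6 CPM in vehicle (median 12.6), 9.77 to 14.9 in relapse (median 13.4) and 10.1 to 15.1 in stable tumours (median 12.6). The groups overlapped, with differences from vehicle of -0.19 (95% interval -0.50 to 0.12) and -0.21 (-0.52 to 0.10), or -0.37 and -0.38 without vehicle tumours 2, 6 and 7. Cdkn2d, the fourth INK4 gene, was low at 2.34 to 5.01 CPM over all tumours. Its stable difference was -0.36 (edgeR adjusted p = 0.192), with 7 of 7 stable tumours below the vehicle median.

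Rb1 encodes the pocket protein on which the kinases act, and lies on the minus strand of chromosome 14 (73192858 to 73325951 in GRCm38). In vehicle tumours its values were 313 CPM at the lowest, 549 at the median and 949 at the highest. Relapse tumours ran from 199 to 391 CPM with a median of 305. All 7 lay below the vehicle median, and vehicle tumours 1 and 4, at 313 and 321 CPM, lay inside the relapse range.

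The log2 fold change of Rb1 in relapse tumours was -0.94 (SE 0.275, 95% interval -1.52 to -0.37, edgeR adjusted p = 0.0318). It was the 1 member of 9 called in relapse against vehicle, beside 11.2% of all genes tested, 5.42% called higher and 5.8% lower. Vehicle tumours 2, 6 and 7 held the 3 highest Rb1 values of all 21 tumours, at 843, 566 and 949 CPM, and without them the difference was -0.47 (edgeR adjusted p = 0.348). The call was also lost with 1 tumour per title code (-0.60, edgeR adjusted p = 0.43) and with limma's voom and tumour quality weights (-0.55, adjusted p = 0.0588). It was lost with a difference of similar size without vehicle tumour 2 (-0.84, edgeR adjusted p = 0.066), vehicle tumour 7 (-0.78, 0.0719), relapse tumour 1 (-0.93, 0.0554), relapse tumour 2 (-0.87, 0.0612) or relapse tumour 5 (-0.90, 0.0601), and in limma with a random effect for title code (-0.87, adjusted p = 0.0589). All 11 muscle markers were called higher in relapse tumours. In relapse tumour 4, where their sum was the lowest of the group at 187.5 CPM, Rb1 was 352 CPM, inside the vehicle range. The part of muscle in the Rb1 result was not tested.

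Stable tumours ran from 117 to 524 CPM of Rb1, with a median of 348, and all 7 lay below the vehicle median. The difference of -0.76 (95% interval -1.33 to -0.19) did not pass the test (edgeR adjusted p = 0.064). It passed with DESeq2 (adjusted p = 0.034) and in edgeR without vehicle tumour 1 (0.032), vehicle tumour 4 (0.0355) or stable tumour 5 (0.0372). It was -0.29 (0.565) without vehicle tumours 2, 6 and 7. Exons of Rb1 in GENCODE, 6015 bases against 4625 in the table, overlap those of 2 genes on the opposite strand. Rcbtb2 shares 488 bases (8.11% of the exonic length of Rb1) and was not called, at -0.30 in relapse (edgeR adjusted p = 0.322) and -0.37 in stable tumours (0.184). Lpar6, which lies within Rb1, shares 408 bases (6.78%) and rose in both treated groups, by 0.38 in relapse (0.0243) and 0.41 in stable tumours (0.0152).

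**Figure D3:**
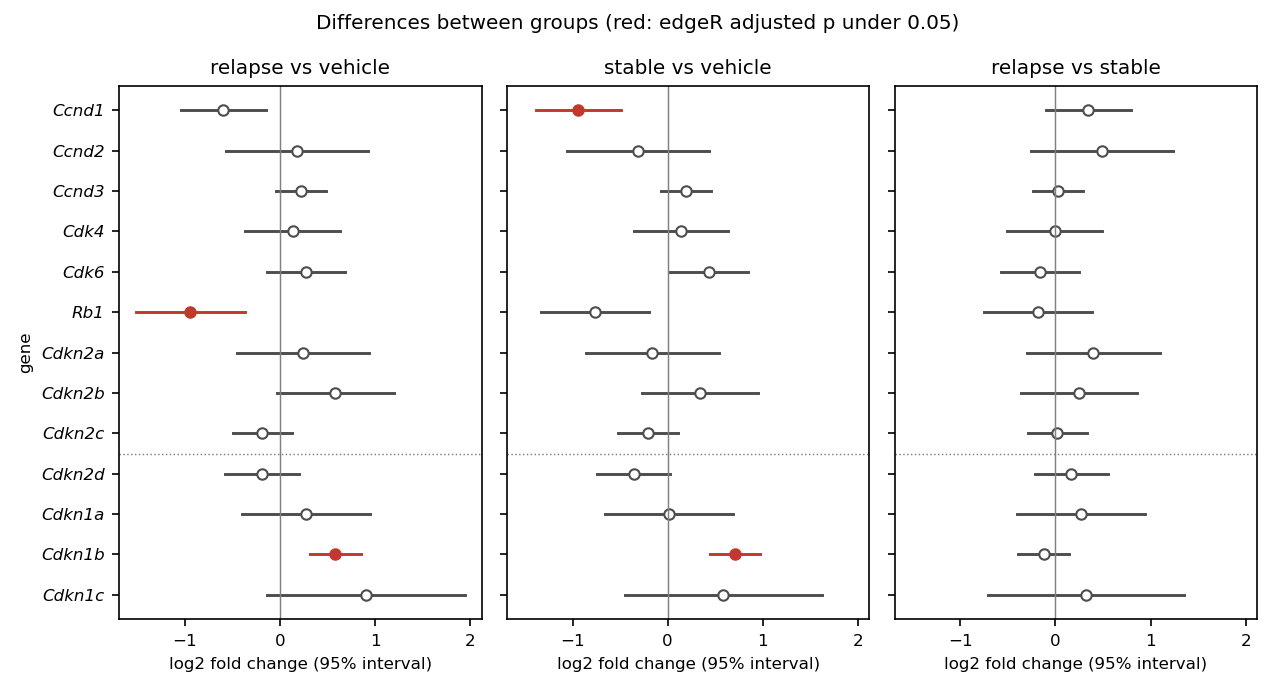
Log2 fold changes with 95% intervals (horizontal axis) of the 9 genes and, under the dotted line, 4 other cell cycle inhibitors, for relapse and stable tumours against vehicle and for relapse against stable. Red marks an edgeR adjusted p under 0.05: Rb1 in relapse, Ccnd1 in stable and Cdkn1b in both.

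**Figure D4:**
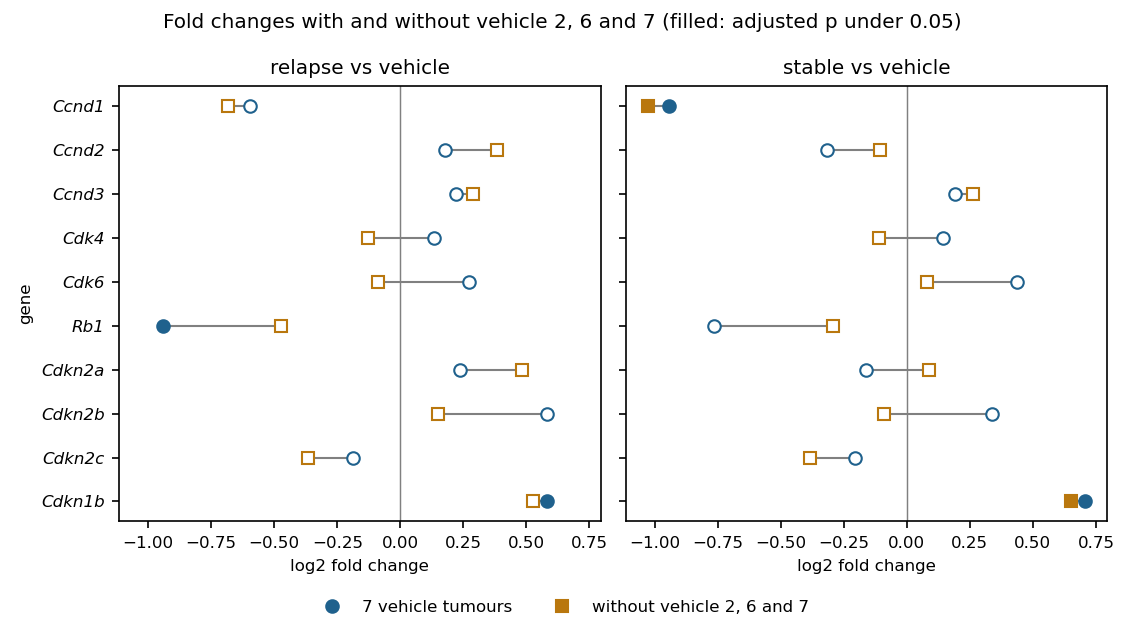
Log2 fold change of each gene against vehicle with all 7 vehicle tumours and without vehicle tumours 2, 6 and 7. Ccnd1 keeps its size (-0.94 and -1.03 in the stable group), whereas Rb1 in the relapse group goes from -0.94 to -0.47 and Cdk6 in the stable group from 0.44 to 0.08.

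Stable tumour 1 departed from its group in several members at once, a pattern noted after its values were seen. It had the lowest level of all 21 tumours for Ccnd1 (99.5 CPM), Ccnd2 (27.6), Ccnd3 (25.2) and Rb1 (117), and the highest for Cdk4 (144). Of 21 E2F target and S phase genes, 16 were highest in this tumour. Its basal marker sum, 247.2 CPM, was the lowest in the series. Of all pairs of members, Rb1 and Cdk4 had the strongest correlation over the 21 tumours, with lower Rb1 beside higher Cdk4. Pearson r was -0.77, and -0.69 without vehicle tumours 2, 6 and 7. Stable tumour 1 held the extreme value of both genes, and r without it was not computed. The pair was picked for its size, and r is a description over tumours that share groups and title codes.

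Of 4 further inhibitors, Cdkn1b and the 3 genes Cdkn1a, Cdkn1c and Cdkn2d, only Cdkn1b passed the test in either treated group. Of all genes tested, 11.2% passed in relapse and 15.1% in stable tumours. Cdkn1b, whose product p27 both restrains cyclin E and A kinases and binds cyclin D complexes, ran from 95.2 to 147 CPM in vehicle (median 128), 153 to 206 in relapse (median 175) and 125 to 222 in stable tumours (median 200). Relapse and vehicle tumours did not overlap, and in the stable group only tumour 1, at 125 CPM, fell inside the vehicle range. The share of all genes tested whose groups did not overlap was not counted. Cdkn1b rose by 0.58 (SE 0.127, edgeR adjusted p = 0.0076) in relapse and 0.71 (SE 0.128, 0.00189) in stable tumours. Without vehicle tumours 2, 6 and 7 the relapse difference was 0.53 (0.0524), and with 1 tumour per title code neither passed (0.197 in relapse and 0.177 in stable tumours).

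Cdkn1a, the p53 target encoding p21, had vehicle values between 17.1 and 81.5 CPM, relapse values between 37.5 and 125, and stable values between 30.5 and 62.4. Its differences from vehicle were 0.28 (edgeR adjusted p = 0.627) and 0.01 (0.986). Vehicle tumours 2, 6 and 7 held the lowest values of the series, and without them the differences were -0.19 (0.74) and -0.45 (0.334). Cdkn1c, which encodes p57, had differences of 0.91 (0.248) and 0.59 (0.443), with values spread from 1.46 to 17.9 CPM over all tumours.

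Downstream of Rb1, none of 12 pocket protein and E2F genes and none of 21 E2F target and S phase genes was called by edgeR in either comparison with vehicle. At an unadjusted p under 0.05 there were 0 and 0 of the 12, and 1 and 3 of the 21, in relapse and stable tumours, beside 27.5% and 31.1% of all genes tested. DESeq2 called 0 and 1 of the 21. The median log2 difference of the 21 genes was 0.18 in relapse and 0.29 in stable tumours, beside -0.02 and -0.0048 over all genes tested. Both medians turned negative without vehicle tumours 2, 6 and 7, at -0.19 and -0.10, and 11 of the 21 genes had their lowest value in vehicle tumour 6 and 3 in vehicle tumour 7. The E2F genes of lowest p were E2f6 in relapse (0.23, edgeR adjusted p = 0.194) and E2f4 in stable tumours (-0.21, 0.304), or 0.13 (0.613) and -0.42 (0.0592) without those 3 vehicle tumours. Mcm7, a subunit of the replicative helicase, was 0.62 higher in relapse (edgeR adjusted p = 0.151) and 0.79 higher in stable tumours (0.0584), neither passing. Without those 3 tumours it was 0.18 (0.68) and 0.36 (0.33) higher, while the stable difference passed without vehicle tumour 1 (0.0397), 4 (0.032) or 5 (0.0494) or stable tumour 5 (0.0455), and in limma with a random effect for title code (adjusted p = 0.0379).

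Of 12 genes for CDK activation, assembly and D cyclin turnover, 1 was called lower in relapse, and 1 higher and 2 lower in stable tumours, beside 11.2% and 15.1% of all genes tested. The medians of the 12 were -0.04 and -0.05. Fbxo4, an F-box protein described in the turnover of cyclin D1, fell by 1.09 on the log2 scale in relapse (edgeR adjusted p = 0.0167) and by 0.99 in stable tumours (0.0238). Both calls were lost without vehicle tumours 2, 6 and 7, where the differences were -0.30 (0.429) and -0.19 (0.614). They were also lost with 1 tumour per title code, at -0.365 (0.431) and 0.01 (0.988). The relapse call was lost with limma's voom and tumour quality weights (-0.49, adjusted p = 0.114). The stable call was lost without vehicle tumour 2 (0.0742), 6 (0.0618) or 7 (0.0637) alone, and with sums per title code (-0.82, 0.0831). It was lost too with only the 2 groups fitted (-0.97, 0.0812) and in limma with a random effect for title code (-0.85, adjusted p = 0.0552). Usp2, a deubiquitinase described as stabilising cyclin D1, fell by 1.20 in stable tumours (0.0162). It was at -1.06 (0.137) with sums per title code, and at -0.63 (0.244) without vehicle tumours 2, 6 and 7. Fbxo31, another F-box protein linked to cyclin D1, rose by 0.63 in stable tumours (0.034), and by 0.98 (0.00969) without them. That call was lost with sums per title code (0.75, 0.101), with 1 tumour per code (0.96, 0.14), with only the 2 groups fitted (0.64, 0.065), and without any one of vehicle tumours 1, 2, 3 and 4 or stable tumours 2, 3, 5 and 6, where it was 0.54 to 0.64 (0.0524 to 0.064). In relapse Fbxo31 was 0.48 higher (edgeR adjusted p = 0.113). It passed there without vehicle tumours 2, 6 and 7 (0.83, 0.0369) and with limma's voom and tumour quality weights (0.71, adjusted p = 0.0106).

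Among 13 regulators of the Cdkn2a and Cdkn2b locus and ARF partners, 1 was called in relapse and 0 in stable tumours, beside 11.2% and 15.1% of all genes tested. In stable tumours 0 of the 13 had an unadjusted p under 0.05, beside 31.1% of all genes, and DESeq2 called 0. The called gene was Id1, an inhibitor of basic helix-loop-helix factors, which rose by 1.01 (edgeR adjusted p = 0.03) in relapse and was at 0.69 (0.22) without vehicle tumours 2, 6 and 7. Its call was also lost without any one of these 3 or of relapse tumours 2 and 6 (0.052 to 0.0746). The Id1 call was lost too with sums per title code (0.99, 0.109) and with 1 tumour per code (0.64, 0.446). With limma's voom and tumour quality weights it was 0.65 (adjusted p = 0.13). Tbx2, a T-box repressor of the locus, had the lowest p in stable tumours (-1.13, 0.164), and its sign turned without vehicle tumours 2, 6 and 7 (0.72, 0.31). Bmi1, a Polycomb repressor of the locus, differed by -0.20 between relapse and stable tumours (0.99).

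Relapse and stable tumours were compared with each other directly, since both comparisons above share the vehicle tumours. None of the 9 genes was called by edgeR, beside 0% of all genes tested, and 0 of 9 had an unadjusted p under 0.05, where 751 genes did. Over all genes DESeq2 called 6 and limma's voom 0. The largest difference among the members was that of Ccnd2, 0.49 higher in relapse (95% interval -0.26 to 1.24), followed by Cdkn2a at 0.40 (-0.30 to 1.10) and Ccnd1 at 0.35 (-0.10 to 0.79). The Rb1 difference was -0.18 (-0.75 to 0.39). In the lists, the lowest p fell to E2f4, Pcna, Usp2 and Bmi1, none of them called. These intervals leave room for differences of 0.79 in Ccnd1 and 0.75 in Rb1, so equality was not shown.

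The 2 title codes present in both treated groups gave 1 relapse and 1 stable tumour each. Relapse tumour 5 and stable tumour 5 shared a code and had 247 and 146 CPM of Ccnd1, 238 and 524 of Rb1, and 6.53 and 2.24 of Cdkn2a. Relapse tumour 6 and stable tumour 7 shared the other, with 209 and 176 CPM of Ccnd1, 331 and 348 of Rb1, and 4.72 and 2.34 of Cdkn2a. In both pairs the relapse tumour was higher in Ccnd1, Cdk4, Cdkn2a and Cdkn2b and lower in Rb1, Ccnd3 and Cdkn2c, without a test. The pairs disagreed in Ccnd2 and Cdk6. Some differences were small, with log2 ratios in the second pair of 0.02 for Cdk4 and -0.07 for Rb1. The share of all genes that took the same direction in both pairs was not counted.

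The genes whose log2 CPM followed a member most closely over the 21 tumours, among 13373 compared, were named for Ccnd1, Ccnd2 and Rb1 as a description. Those nearest to Ccnd1 were Arg1 (Pearson r = 0.81), Rbm27 (0.80) and Exoc5 (0.78). For Ccnd2 they were Edaradd (0.88), Smad9 (0.82) and Pkdcc (0.82), and for Rb1 Hacd3 (0.93), Meltf (0.92) and Eea1 (0.92). Leaving out vehicle tumours 2, 6 and 7 kept all 9 coefficients between 0.83 and 0.92. Among the members themselves Cdk6 and Cdkn2b had r = 0.70 over 21 tumours and 0.06 without those 3, while Cdkn2a and Cdkn2b had 0.40 and 0.79.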

How the data were processed

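RNA from snap-frozen, powdered tumours was sequenced as stranded mRNA libraries in single-end reads of 50 nt, per the labels' protocols. The deposited table holds raw gene counts, one column per tumour, made on the mm10 genome per the submitters' processing notes. The deposited values are whole numbers and were taken as unnormalised counts; 10202 lines carry an extra cell, so lines were read from their right end. The notes name edgeR, SAMtools 1.3.1, STAR 2.5.2a and Picard 2.9.2 with no roles, and the sources used here do not give the annotation or the strand and multi-mapping settings. Tumours were grouped by their labels, and gene symbols were matched to RefSeq by Entrez number for 23968 genes. Counts were filtered with filterByExpr, scaled with TMM and tested with edgeR 4.0.16 (R 4.3.3) by the quasi-likelihood test over all 21 tumours, with Benjamini-Hochberg adjustment over 15792 genes, called at an adjusted p under 0.05. CPM and RPKM used TMM-scaled totals and the table's gene lengths. Exon overlaps and exonic lengths were taken from GENCODE M21. Standard errors are the log2 fold change divided by the root of F. Alternatives used DESeq2 1.42.0, limma 3.58.1, other sets of tumours and each tumour left out in turn. Shares and correlations (log2 CPM) have no test. The fit was tested on simulated data. Total counts per tumour were 13337848 to 24873844, and the lowest count of any of the 9 genes was 39. The 9 genes and the lists were chosen with earlier results of these data known. All members and 4 further inhibitors are named, with up to 4 called genes of lowest p per pathway list and comparison (the gene of lowest p where none was called), and the 3 genes most correlated with Ccnd1, Ccnd2 and Rb1.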

Additional observations from a re-analysis of the deposited data

Results flagged for a closer look

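Within groups of 7 tumours, the most extreme value was compared with its nearest neighbour, as a share of the group's range on the log2(CPM + 0.01) scale, for 13 genes in 3 groups. Of the 39 groups examined, 4 passed Dixon's 95% critical value, where chance gives about 5% of groups. Stable tumour 1 accounted for 3 of them. Its Cdk4 level of 144 CPM was the highest of the stable group, with 72.4 CPM next (gap 0.597 of the range). Its Rb1 level of 117 CPM was the lowest, with 310.1 CPM next (0.65), and its Cdkn1b level of 125 CPM was the lowest, with 197 CPM next (0.797). In the relapse group, tumour 2 had 125 CPM of Cdkn1a with 52.8 CPM next (0.717). On the CPM scale the 4 shares were 0.727 for Cdk4, 0.475 for Rb1, 0.748 for Cdkn1b and 0.826 for Cdkn1a, so the Rb1 value passed on the log2 scale but not on this one.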

How the results depend on the processing

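Of 891 values of the 9 genes under the alternatives, 12 lost a call, 9 gained one and 870 stayed on their side of the threshold. The sign turned in 45, none of them called. Only Rb1 in relapse and Ccnd1 in stable tumours were called in the main fit, so only their values could lose a call. With each tumour left out in turn, Rb1 stayed called in 16 of 21 fits and Ccnd1 in 21 of 21. Genes called in relapse against vehicle (1772) numbered 987 with a replicate block, 955 with counts summed per title code, 12 with 1 tumour per code, 527 without vehicle 2, 6 and 7, and 180 with sums and without those 3. In stable against vehicle (2378) they were 1251, 592, 27, 847 and 172, and 964 with only the 2 groups fitted. In relapse against stable (0), DESeq2 called 6. Leaving out one tumour gave 1156 (vehicle 6) to 2671 (stable 1), 1470 (vehicle 6) to 3272, and 0 to 4 (relapse 4). Vehicle 2 left out gave 1160 and 1496. Upper quartile scaling called 953 higher and 673 lower in relapse, against 856 and 916, and 1294 and 1032 in stable tumours, against 1090 and 1288. Members called in relapse against vehicle (1) were 0 with the block, the code as random effect, 1 tumour per code, without the 3 vehicle tumours and with sums without them, and 2 with DESeq2. In stable against vehicle (1) they were 2 with DESeq2 and 0 with 1 tumour per code. Leaving out one tumour gave 0 to 2 and 1 to 2. With the block Rb1 in relapse was -0.85 (edgeR adjusted p = 0.0674). Fbxo4 in stable tumours went from -0.99 to 0.01 with 1 tumour per code. The Ccnd1 share of the D cyclins in stable tumours was 59.6% when not divided by length. For all these changes the cause was not tested, except that fewer tumours enter the fits with fewer samples. Replicate numbers did not pair the tumours: of 7 same-numbered pairs, 1 had a correlation above 0.1 in each comparison. Cdkn2a, with the fewest counts, had the least precision from depth.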
